A study of Mus musculus with 24 samples.

Results

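The 38 genes described here encode proteins that carry a cell through mitosis. They were taken by gene symbol from the exon rows of a deposited count table that names 29758 symbols, keeping the row with the highest total where a symbol had several rows. They were chosen by the function of their products, with earlier results of these data known. All 38 were found, and all 38 passed the filter on low counts that left 15719 genes for testing. Whole back skin was taken from wild type male C57BL/6NCrl mice, an inbred strain, at about 8 weeks of age, after 18 to 21 days on a feeding schedule. Their hair follicles were in telogen, when follicles rest between growth phases. Lights were on for 12 h from ZT0 (ZT counts hours from lights on), and 3 groups differed in the 4 h in which food was given: ED from ZT0 to ZT4, MD from ZT5 to ZT9 and EN from ZT12 to ZT16. Each group had 8 libraries, taken every 4 h with the first at ZT0 and the last at ZT28, and each library was made from RNA pooled from 2 to 4 mice. With 1 pool per group and time, the error in every test is the departure of the 24 pools from a fitted daily curve. The sources used here do not say whether the mice of different pools were housed or killed together, so p-values measure only the spread between these pools.

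A dividing cell copies its DNA in S phase, waits in G2 and then separates its chromosomes in mitosis. Cyclin B and CDK1 start mitosis, kinesin motors build the spindle, the checkpoint holds division until kinetochores are attached, and the anaphase-promoting complex then destroys cyclin B and securin. Many of these genes are transcribed late in the cycle only, when the MuvB core complex works with B-MYB and FOXM1 instead of with repressors. In mouse skin at telogen the dividing cells are chiefly basal keratinocytes of the epidermis, in which S phase and mitosis are known to fall at different times of day. In growing hair follicles the matrix cells also divide rapidly.

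Total exon counts per library ran from 13222667 to 26316851. Keratinocyte genes marked the tissue: the summed level of 7 basal keratinocyte markers (Krt5, Krt14, Krt15, Itga6, Itgb4, Col17a1 and Trp63) lay between 5801 and 7864 CPM (counts scaled to the library total with TMM factors). Pools ED ZT24 and EN ZT0 stood apart in markers of the growing hair follicle. The sum over these markers (13 of 14 listed genes are in the table, and 7 passed the filter) was 883 CPM in ED ZT24 and 2489 CPM in EN ZT0, against 98.7 to 158 CPM in the other 22 pools, although the labels place all pools in telogen. By group it ranged from 110 to 883 CPM in ED, from 129 to 158 CPM in MD and from 98.7 to 2489 CPM in EN. Of the 13 markers in the table, 12 had more reads in both of these pools than in any other. The exception was Krt75, with 1587 reads in ED ZT24 and 1971 in EN ZT0, against up to 3127 in another pool. In the other 22 pools, 7 of the 13 were at 0 in at least 1 pool (Shh in 14 of them, Krt35 and Krt73 in 10), and Krt71, Krt28, Krt75, Hoxc13, Msx2 and Tchh had reads in each. ED ZT24 and EN ZT0 were also the lowest pools for the summed basal keratinocyte markers, at 5952 and 5801 CPM, against 6116 CPM or more in the others. Results that rest on these pools are given with and without them, and the part of hair follicle cells in them was not tested.

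Taken over all 38 genes, mitosis transcripts were most abundant late in the dark phase and at lights on in each feeding group. Their lowest sums fell late in the light phase in ED and EN, and in MD at ZT4 and ZT28. Their summed level in ED was 541, 525, 346, 352, 487, 773, 976 and 556 CPM at ZT0, 4, 8, 12, 16, 20, 24 and 28. In MD the sums at the same times were 569.5, 371, 425, 392, 455, 554, 472 and 377 CPM, and in EN they were 694, 509, 414, 373, 458, 560.4, 567 and 495 CPM. The highest sum exceeded the lowest 2.82 times in ED, 1.53 times in MD and 1.86 times in EN. The 6 pools taken at ZT8 and ZT12 held 346 to 425 CPM, and the 9 pools taken at clock ZT20 and ZT0 held 472 to 976 CPM, so these sets did not overlap. These are the clock times with the lowest and highest median sums, so the separation is a description. MD ZT4 and ZT28, at 371 and 377 CPM, lie outside both sets. Gene by gene, the ZT20 and ZT0 pools all lay above the ZT8 and ZT12 pools in 11 of 38 (0.21% of all genes tested). In bulk tissue a lower share of dividing cells and less RNA per dividing cell cannot be told apart.

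**Figure D1:**
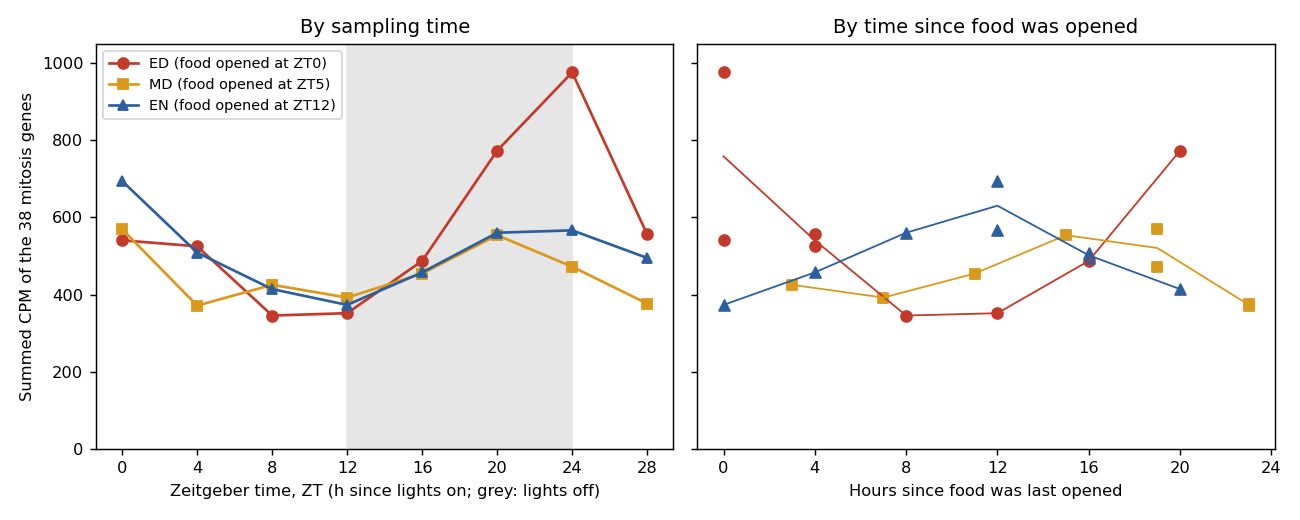
Summed CPM of the 38 mitosis genes in each of the 24 pools, against sampling time on the left (ZT, h; grey marks the dark phase) and against hours since food was last opened on the right, where lines join the means at each time. The ED, MD and EN series are all low at ZT8 and ZT12 (346 to 425 CPM), MD being as low at ZT4 and ZT28 (371 and 377 CPM), whereas on the food axis ED and EN run in opposite directions.

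Placed on the time since food was opened, the same pools no longer lined up. ED and EN were sampled at the same hours after food and at opposite clock times. When food had just been opened, the sum was 541 and 976 CPM in ED, against 373 CPM in EN. At 12 h after opening it was 352 CPM in ED, against 694 and 567 CPM in EN. At 8 h it was 346 CPM in ED and 560.4 CPM in EN, and at 20 h 773 CPM in ED and 414 CPM in EN. Which group was higher thus turned round with the hour on the food axis.

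A daily rhythm over ZT shared by the 3 groups passed the test in 22 of 38 mitosis genes (edgeR's quasi-likelihood test, Benjamini-Hochberg adjustment over all genes tested, adjusted p below 0.05), where 0.668% of the 15719 genes passed. A further 10 genes reached an unadjusted p below 0.05, which makes 32 in all, where 14.7% of all genes did. Among the 105 genes that passed, 22 belong to the list and 11 to a separate list of 72 tested mitotic genes outside it. Amplitudes, taken from the mean to the peak on the log2 scale, ran from 0.41 (Mki67) to 0.73 (Cenpf) in the 22 genes that passed, with a median of 0.50, and over all 38 genes the median was 0.45 against 0.09 over all genes tested. Peaks of these 22 fell between ZT 20.7 (Top2a) and ZT 23.1 (Ccnb2). Of the 38 fitted peaks 35 lay between ZT20 and ZT2, a window that held 26.8% of the peaks of all genes tested. The 7 tested hair follicle markers also had their fitted peaks between ZT20 and ZT2 (0 passed by edgeR's quasi-likelihood test, 6 unadjusted), and their part in the rhythm of the mitosis genes was not tested. Without ED ZT24 and EN ZT0, 19 mitosis genes passed (0.597% of all genes), all of them among the 22. The 3 lost were Ube2c, Mki67 and Plk1, and 31 of 38 peaks stayed in the same window. With 1 term for each clock time in place of the curve, 4 of 38 genes passed (6 of all genes). With a term for a code L1 to L8 in the labels, whose meaning is not given there, 9 passed (18 of all genes), and without ED ZT12, 13 passed (0.228% of all genes).

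By contrast, a rhythm over hours since food was opened, shared by the groups, passed in 0 of 38 mitosis genes, where 1.29% of all genes passed. Only 1 of the 38 had an unadjusted p below 0.05 in edgeR's quasi-likelihood test (15.6% of all genes), and DESeq2 also called 0. With both time frames in the same model, the ZT terms passed in 22 of 38 genes (1.57% of all genes), of which 21 are among the 22 above. The food terms passed in 0 of 38 (2.18% of all genes). Unadjusted, the food terms passed in 4 of the 38 and in 17.2% of all genes. The amplitude over ZT exceeded the amplitude over food time in 35 of 38 genes, with medians of 0.45 and 0.13 on the log2 scale. Over all genes tested the medians were 0.091 and 0.092. When each group had a curve of its own over hours since food, these curves differed among the groups in 25 of 38 genes (1.32% of all genes). When each had a curve over ZT, they differed in 0 of 38 genes by edgeR's quasi-likelihood test (0.999% of all genes). By DESeq2 they differed in 3, a count given without a share of all genes. Unadjusted, they differed in 16 of the 38 by edgeR's test, where 14.4% of all genes did. Without ED ZT12 the ZT terms beside food passed in 11 of 38 genes (0.639% of all genes) and the curves over hours since food differed in 16 (0.69%). Without ED ZT0 the curves over ZT differed in 4 (1.01%). For 18 tested genes of the core clock, the feedback loop that keeps daily time in each cell, the corresponding numbers were 17 for ZT beside food, 14 for food beside ZT and 13 for a ZT rhythm that differed among the groups.

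**Figure D2:**
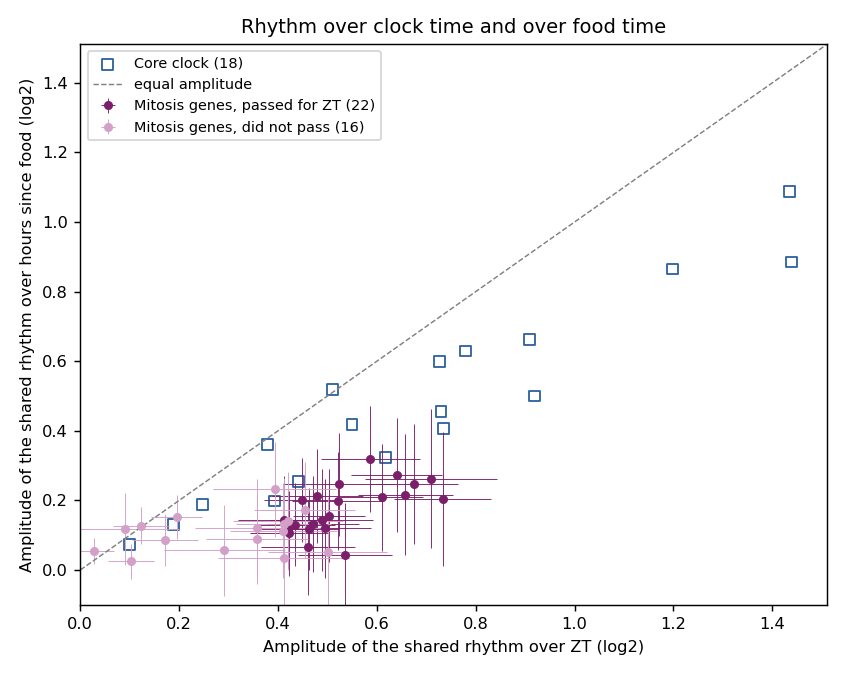
Amplitude (log2, mean to peak) of the rhythm shared over ZT, on the horizontal axis, and over hours since food was opened, on the vertical axis, for 38 mitosis genes (bars are standard errors) and 18 core clock genes (squares). The 22 mitosis genes that passed for ZT lie below the dashed line of equal amplitude, which follows in part from their selection by the ZT test. Their medians are 0.50 over ZT and 0.18 over food time, and those of all 38 genes are 0.45 and 0.13.

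Within single groups the calls were uneven. In ED 24 of 38 mitosis genes passed (0.719% of all genes), in MD only Cenpe passed (0.942% of all genes), and in EN 6 passed (1.06% of all genes), namely Aspm, Anln, Cenpf, Cdc20, Ccnb1 and Ube2c. All 6 of EN and the gene of MD were among the 24 of ED. At an unadjusted p below 0.05, ED had 34 genes (14.9% of all genes), MD had 17 (15.7%) and EN had 27 (10.8%). The median log2 amplitude over the 38 genes was 0.68 for ED (0.15 over all genes tested), 0.33 for MD (0.15) and 0.38 for EN (0.13). The amplitude was larger in ED than in MD for 21 of the 22 genes with a shared rhythm, and larger in ED than in EN for 20 of them. A rhythm that differed between ED and MD passed in 0 of 38 genes by edgeR's quasi-likelihood test (0.35% of all genes). By DESeq2 it passed in 1, a count given without a share of all genes. Unadjusted, 22 of the 38 passed, where 11.7% of all genes did. The count of 0 rests on ED ZT0. Without this pool 5 passed between ED and MD (0.412% of all genes), and 4 passed for a ZT rhythm that differed among the 3 groups (1.01%). Between ED and EN a differing rhythm passed in 0 (0.401% of all genes), and in 5 unadjusted (11.6% of all genes). Between MD and EN it passed in 0 (0.35% of all genes), and in 6 unadjusted (12.7% of all genes). DESeq2 called 0 for both of these pairs. In MD, 4 genes passed without ED ZT0 or ED ZT24 (0.798% and 1.052% of all genes) and 2 without MD ZT16 (0.728%). In that group 0 passed without MD ZT0, ZT4, ZT12, ZT20 or ZT28 (0.577%, 0.323%, 0.425%, 0.849% and 0.380% of all genes). In EN, 3 passed without EN ZT20 (0.824% of all genes) and 2 without EN ZT8 or ZT24 (0.754% and 0.640%). There, 1 passed without EN ZT0 or ZT16 (0.564% and 0.526%) and 0 without EN ZT12 (0.272%).

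The calls in ED rested on several single pools. Without ED ZT8 or without ED ZT12, both low pools, 6 of 38 genes passed there (0.260% and 0.158% of all genes). Without ED ZT20 and ED ZT24, both high pools, left out 1 at a time, 14 and 10 did (0.37% of all genes each). With all pools 0.719% of all genes passed in ED. ED ZT24 was higher than ED ZT0, its clock time on the previous day, by a median of 0.98 log2 units over the 38 genes, and 36 of 38 were higher. Over all genes the median difference was 0.0016 and the median absolute difference 0.18. ED ZT24 was also the pool with 883 CPM of hair follicle markers, and it held the highest CPM of the 24 pools for 32 of 38 genes. The share of all genes highest in this pool was not counted. Without ED ZT24 and EN ZT0, 10 genes passed in ED (0.387% of all genes), 4 passed in MD (0.915%) and 2 passed in EN (0.622%). The median log2 amplitude was then 0.55 in ED, against 0.33 in MD and 0.35 in EN. In ED ZT20, where hair follicle markers were within the range of the other pools, the sum of the 38 genes was 773 CPM, against 554 CPM in MD and 560.4 CPM in EN at the same time.

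In the genes with a shared rhythm, fitted peaks in ED and EN lay close together on the clock, and those in MD were earlier. Over the 22 genes with a shared rhythm, the peak in ED minus that in EN had a median of -0.66 h, while food was opened 12 h apart. The peak in ED minus that in MD had a median of 2.07 h and was later in ED for 21 of 22 genes, and in MD minus EN the median was -2.77 h and MD was earlier for 22 of 22. The difference exceeded 2 standard errors in 5 genes between ED and MD, in 0 between ED and EN and in 4 between MD and EN. Because no gene passed the test for a rhythm differing between a pair, these offsets are given as a description. Without ED ZT24 and EN ZT0 the medians over the 22 genes were 1.96 h for ED minus MD, -0.80 h for ED minus EN and -2.85 h for MD minus EN. The 22 genes had passed a test for 1 curve common to the groups, which selects for peaks that lie close together. Over all 38 genes and all pools, ED minus EN had a median of -0.79 h and ran from -11.7 to 9.12 h. ED minus MD had a median of 2.22 h (-11.7 to 9.86 h), and MD minus EN one of -2.50 h (-9.54 to 10.8 h).

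**Figure D3:**
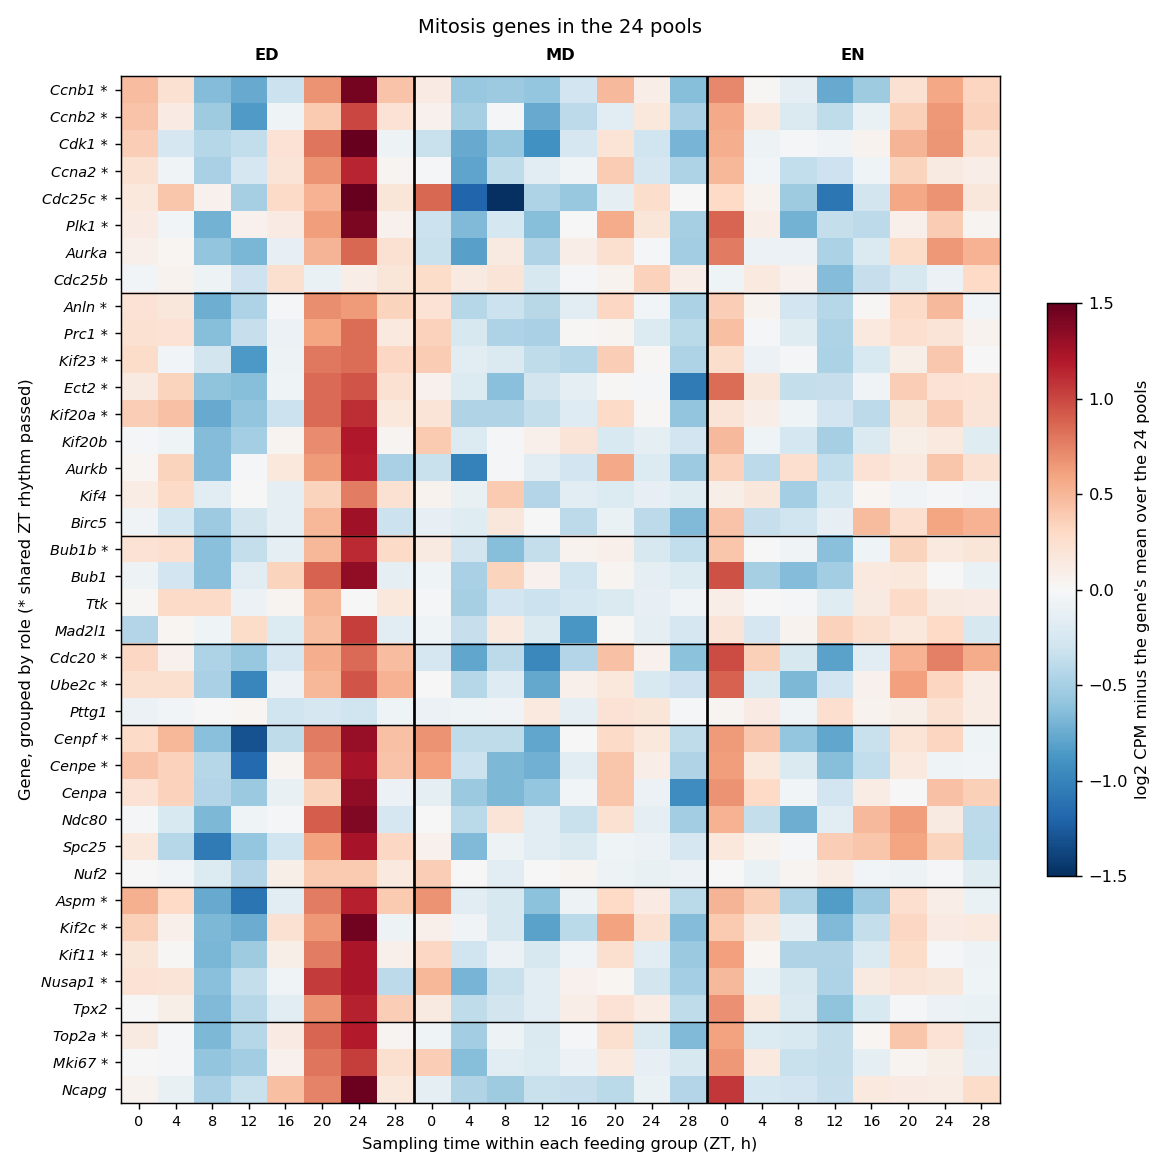
Level of each mitosis gene in each pool as log2 CPM minus the gene's mean over the 24 pools (colour), with genes in rows grouped by role and pools in columns by group (ED, MD, EN) and sampling time (ZT, h). Asterisks mark the 22 genes with a shared rhythm over ZT. Blue columns at ZT8 and ZT12 and red columns at ZT20 and ZT24 are visible in ED, with ED ZT24 the darkest.

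The genes that start mitosis were the cyclins Ccnb1, Ccnb2 and Ccna2, their kinase Cdk1, the phosphatases Cdc25b and Cdc25c that activate it, the polo-like kinase Plk1 and the centrosomal kinase Aurka. Of these 8, 6 passed and Aurka and Cdc25b did not. Ccnb1 encodes cyclin B1 (chr13:100778739-100786486 in GRCm38.p6) and stood at 13.2, 11.1, 6.01, 5.57, 7.63, 15.2, 25.96 and 12.8 CPM in ED from ZT0 to ZT28, at 10.3, 6.39, 6.48, 6.35, 7.79, 13.4, 10.2 and 6.09 CPM in MD and at 15.8, 9.65, 8.57, 5.61, 6.54, 11.2, 14.3 and 11.97 CPM in EN. Its lowest pool was ED ZT12 and its highest ED ZT24, and the ranges of the groups overlapped. The shared rhythm had a log2 amplitude of 0.66 ± 0.10 and peaked at ZT 22.9 ± 0.556 h (standard errors; edgeR's quasi-likelihood test, adjusted p = 0.00123). The fit within ED placed its peak at ZT 23.2 ± 0.512 h, that within MD at ZT 20.5 ± 0.831 h and that within EN at ZT 0.335 ± 0.739 h.

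Cdk1, the catalytic partner of cyclin B (chr10:69335146-69352912), measured 9.48, 6.11, 5.42, 5.65, 8.54, 12.9, 21.2 and 6.94 CPM in ED, 5.79, 4.29, 4.92, 3.84, 6.13, 8.45, 5.93 and 4.47 CPM in MD and 10.7, 6.94, 7.18, 7.07, 7.60, 10.4, 11.6 and 8.61 CPM in EN at the same times. ED ZT24 was again highest, MD ZT12 was lowest, and 4 of the 8 MD pools lay below every pool of ED and EN. The amplitude was 0.52 ± 0.09 and the peak ZT 21.1 ± 0.635 h (adjusted p = 0.0140 by edgeR's quasi-likelihood test). Ccna2, whose cyclin A2 acts in S phase and G2 (chr3:36564865-36573038), had 16.3, 13.5, 9.89, 11.7, 15.9, 22.2, 30.8 and 14.3 CPM in ED, 13.6, 7.9986, 10.7, 12.4, 13.4, 18.2, 11.6 and 10.1 CPM in MD and 19.6, 13.5, 10.8, 11.2, 13.3, 17.5, 15.3 and 14.9 CPM in EN. Its peak, at ZT 20.7 ± 0.662 h, was the earliest of the 6 genes of this role that passed (amplitude 0.43 ± 0.08, adjusted p = 0.0168). Plk1 (chr7:122159435-122169884) had 3.68, 3.30, 2.02, 3.55, 3.71, 5.28, 9.21 and 3.56 CPM in ED, 2.67, 2.10, 2.79, 2.14, 3.37, 5.01, 3.84 and 2.36 CPM in MD and 6.27, 3.62, 2.03, 2.61, 2.56, 3.57, 4.44 and 3.497 CPM in EN. An amplitude of 0.52 ± 0.11 went with a peak at ZT 21.5 ± 0.778 h (adjusted p = 0.0395 in edgeR's quasi-likelihood test, 0.0666 without ED ZT24 and EN ZT0). Cdc25c had the second largest amplitude of the 38 genes, 0.71 ± 0.13, on the fewest counts, with 712 reads in all and 8 in its lowest pool. Cdc25b peaked away from the others, at ZT 2.29 ± 1.09 h, with an amplitude of 0.19 ± 0.05 that did not pass (adjusted p = 0.157), although its lowest pool was that of ZT12 in each group.

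Kinetochore genes were divided. Cenpf, which encodes a large protein of the outer kinetochore and nuclear envelope in mitosis (chr1:189640606-189688107), had 26.7, 30.7, 14.1, 8.76, 16.7, 37.6, 54.1 and 29.7 CPM in ED, 34.7, 16.8, 16.7, 12.6, 21.8, 26.6, 24.4 and 16.7 CPM in MD and 34.03, 28.9, 14.5, 12.6, 17.2, 25.2, 27.2 and 20.9 CPM in EN. The ZT12 pool was the lowest in each group, and the highest were ED ZT24, MD ZT0 and EN ZT0. Its amplitude of 0.73 ± 0.10 was the largest of the 38, with a peak at ZT 23.1 ± 0.515 h (adjusted p = 0.000502, edgeR's quasi-likelihood test). Cenpe, a kinesin that moves chromosomes to the spindle equator, also passed, with an amplitude of 0.64 ± 0.09 and a peak at ZT 22.8 ± 0.545 h. Cenpa, the histone H3 variant of centromeres, missed the threshold with an amplitude of 0.45 ± 0.10 (adjusted p = 0.0514). The 3 members from the NDC80 complex, which grips microtubules, did not pass: amplitudes were 0.50 ± 0.12 for Ndc80, 0.39 ± 0.13 for Spc25 and 0.12 ± 0.06 for Nuf2.

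Genes of spindle assembly passed in 4 of 5 cases. Aspm, which encodes a spindle pole protein needed for the divisions of neural progenitors (chr1:139454188-139494088), had the smallest shared-rhythm p of all 15719 genes tested. It measured 27.3, 23.3, 11.2, 8.76, 16.9, 32.3, 42.4 and 24.9 CPM in ED, 30.2, 16.8, 15.98, 12.3, 17.8, 23.3, 20.6 and 14.2 CPM in MD and 26.9, 24.1, 13.7, 10.5, 12.9, 22.5, 20.2 and 17.7 CPM in EN. In each group the ZT12 pool was the lowest, and the highest pools were ED ZT24, MD ZT0 and EN ZT0. The amplitude was 0.68 ± 0.09 and the peak ZT 23.001 ± 0.4997 h (adjusted p = 0.000502, edgeR's quasi-likelihood test). The kinesins Kif11, which pushes spindle poles apart, and Kif2c, which depolymerizes microtubules, had amplitudes of 0.47 ± 0.09 and 0.59 ± 0.10. Nusap1, which bundles spindle microtubules, had 0.49 ± 0.10, and Tpx2, which activates Aurora A on the spindle, had 0.41 ± 0.10 and did not pass (adjusted p = 0.0620).

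**Figure D4:**
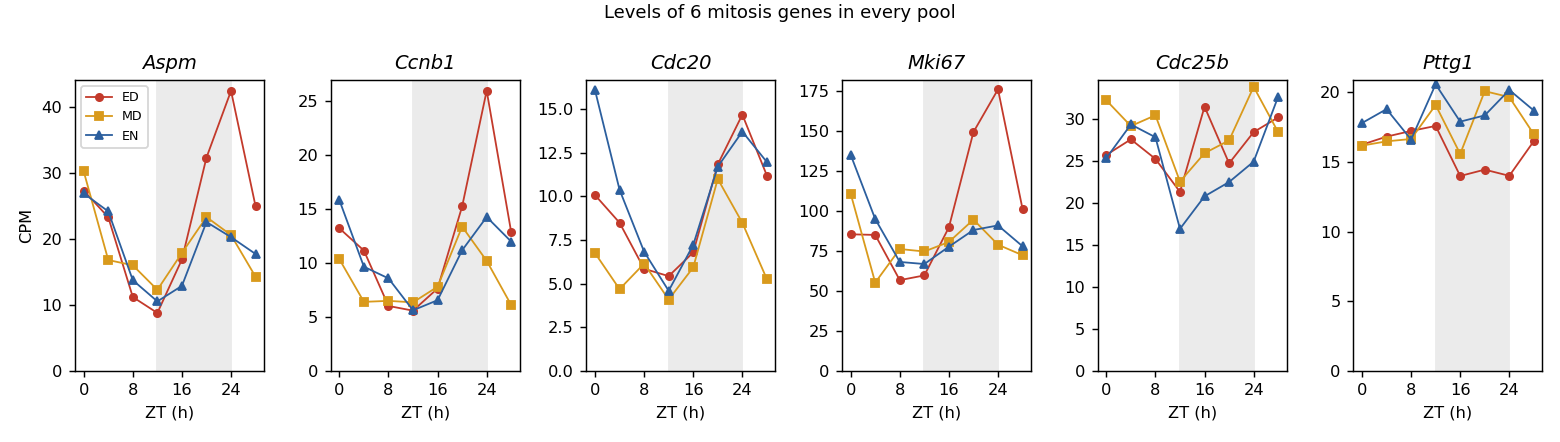
CPM of 6 mitosis genes in every pool against sampling time (ZT, h; grey marks the dark phase), for ED, MD and EN. Aspm, Ccnb1, Cdc20 and Mki67 are lower at ZT12 than at ZT20 and ZT24 in each group, and so is Cdc25b, which has a low fitted amplitude (0.19) and did not pass, while Pttg1 is flat.

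Of the checkpoint genes, only Bub1b passed. Its product BUBR1 blocks the anaphase-promoting complex until kinetochores are attached (chr2:118598202-118641592). Bub1b was at 13.8, 14.2, 7.66, 9.19, 10.8, 16.8, 25.96 and 14.5 CPM in ED, 12.98, 9.75, 7.60, 9.21, 12.3, 12.5, 9.98 and 9.18 CPM in MD and 15.9, 11.9, 11.4, 7.65, 11.4, 15.01, 13.1 and 13.5 CPM in EN, with ED ZT24 highest and the 3 groups overlapping. Its amplitude was 0.42 ± 0.08 and its peak ZT 22.3 ± 0.689 h (adjusted p = 0.0195, edgeR's quasi-likelihood test). The kinases Bub1 and Ttk and the checkpoint protein gene Mad2l1 had amplitudes of 0.41 ± 0.13, 0.10 ± 0.05 and 0.09 ± 0.11. Ttk (chr9:83834651-83872390) was at 12.4, 15.04, 14.9, 11.5, 12.7, 17.4, 12.2 and 13.6 CPM in ED, 12.1, 8.63, 10.003, 9.76, 10.2, 10.6, 11.2 and 11.8 CPM in MD and 13.2, 12.3, 12.2, 10.8, 13.5, 15.01, 13.5 and 13.3 CPM in EN (adjusted p for a shared rhythm 0.471). Mad2l1 (chr6:66535221-66541107) stood at 4.37, 6.11, 5.69, 7.24, 5.18, 8.23, 12.3 and 5.31 CPM in ED, 5.70, 4.68, 6.59, 5.12, 3.22, 6.04, 5.42 and 5.01 CPM in MD and 6.82, 4.98, 6.19, 7.65, 7.07, 6.68, 7.40 and 5.04 CPM in EN (adjusted p 0.813). In both genes the groups overlapped. The lowest pools of Ttk were ED ZT12, MD ZT4 and EN ZT12, and those of Mad2l1 were ED ZT0, MD ZT16 and EN ZT4.

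Among regulators of anaphase, Cdc20 and Ube2c passed and Pttg1 did not. CDC20 turns on the anaphase-promoting complex, UBE2C is its ubiquitin-conjugating enzyme, and Pttg1 encodes securin, which it destroys. Cdc20 (chr4:118432901-118437343) had 10.1, 8.49, 5.85, 5.43, 6.79, 11.8, 14.7 and 11.2 CPM in ED, 6.75, 4.68, 6.15, 4.09, 5.93, 11.004, 8.49 and 5.25 CPM in MD and 16.1, 10.4, 6.83, 4.59, 7.22, 11.7, 13.7 and 11.97 CPM in EN. Its lowest pool in each group was that of ZT12, and its highest were ED ZT24, MD ZT20 and EN ZT0. The amplitude was 0.61 ± 0.08 and the peak ZT 22.9 ± 0.525 h (adjusted p = 0.00117, edgeR's quasi-likelihood test), and for Ube2c they were 0.54 ± 0.09 and ZT 22.1 ± 0.650 h. Pttg1 (chr11:43420244-43427463) had the flattest course of the 38 genes, with 16.2, 16.8, 17.2, 17.6, 13.996, 14.5, 14.01 and 16.5 CPM in ED, 16.2, 16.5, 16.7, 19.1, 15.6, 20.1, 19.7 and 16.99 CPM in MD and 17.8, 18.8, 16.6, 20.6, 17.9, 18.3, 20.2 and 18.7 CPM in EN. Its highest pool was 1.47 times its lowest, and its shared amplitude was 0.03 ± 0.04 (adjusted p 0.944). Over the 24 pools its Pearson correlation with the mean of the other 37 genes was -0.34, whereas the median over the 38 genes was 0.88. With ED ZT24 and EN ZT0 left out, the correlation was -0.16 and the median 0.83. These points share the library and its depth, and the correlation is given as a description.

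The proteins of the central spindle and of cytokinesis, in which the daughter cells are cut apart, gave 5 genes of 9. Anln, for the contractile ring protein anillin (chr9:22331214-22389211), had 36.5, 35.3, 18.8, 22.6, 30.7, 50.6, 48.95 and 39.6 CPM in ED, 36.5, 23.3, 25.1, 23.4, 28.1, 38.8, 30.4 and 22.5 CPM in MD and 40.4, 32.5, 25.5, 23.2, 31.7, 38.2, 43.9 and 30.3 CPM in EN. It was lowest at ZT8 in ED, at ZT28 in MD and at ZT12 in EN, and highest at ZT20 in ED and MD and at ZT24 in EN. With an amplitude of 0.46 ± 0.06 and the smallest standard error of the 22 mitosis genes that passed, it peaked at ZT 21.8 ± 0.475 h (adjusted p = 0.000502, edgeR's quasi-likelihood test). Prc1, which bundles the central spindle, Kif23 and Kif20a, kinesins at work there, and Ect2, which activates RhoA at the cleavage furrow, had amplitudes of 0.42 ± 0.06, 0.45 ± 0.08, 0.48 ± 0.09 and 0.50 ± 0.09. The chromosomal passenger genes on the list, Aurkb and Birc5, did not pass. Aurkb, for the kinase Aurora B (chr11:69045624-69051664), had 4.14, 5.14, 2.55, 3.98, 4.55, 6.39, 9.36 and 2.86 CPM in ED, 3.20, 1.95, 4.02, 3.60, 3.32, 6.09, 3.498 and 2.75 CPM in MD and 5.18, 3.07, 4.86, 3.12, 4.74, 4.53, 5.45 and 4.78 CPM in EN. Its fitted peak was at ZT 20.005 ± 1.24 h with an amplitude of 0.36 ± 0.13 (adjusted p 0.277), and Birc5, for survivin, had 0.29 ± 0.12. Kif20b, a kinesin of late cytokinesis, and Kif4, a motor on chromosomes and the central spindle, had 0.36 ± 0.10 and 0.17 ± 0.07.

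The list holds 3 genes of chromosome structure. Top2a, the topoisomerase that untangles sister DNA (chr11:98992947-99024199), had 57.4, 51.2, 32.7, 38.7, 56.8, 95.9, 119 and 53.8 CPM in ED, 49.8, 36.5, 49.6, 45.03, 51.7, 61.6, 44.8 and 32.9 CPM in MD and 79.2, 45.3, 44.7, 40.7, 53.5, 69.6, 60.7 and 46.9 CPM in EN. Its mean over the 24 pools was 13.0 RPKM, a value scaled by transcript length and library size, which is the highest level per length of the 38 genes. The shared rhythm had an amplitude of 0.46 ± 0.10 and a peak at ZT 20.7 ± 0.729 h (adjusted p = 0.0272, edgeR's quasi-likelihood test). Mki67, for the proliferation marker Ki-67 that coats mitotic chromosomes (chr7:135689784-135716450), had 85.4, 84.98, 56.7, 59.7, 89.7, 149, 176 and 101 CPM in ED, 111, 55.2, 76.2, 74.6, 80.6, 94.6, 78.9 and 72.3 CPM in MD and 135, 94.9, 68.1, 66.8, 77.6, 88.1, 90.9 and 77.9 CPM in EN. ED ZT24, ED ZT20 and EN ZT0 were its highest pools, and its lowest was MD ZT4. The amplitude of Mki67 was 0.41 ± 0.09 and its peak ZT 21.8 ± 0.820 h (adjusted p = 0.0354, and 0.0695 without ED ZT24 and EN ZT0). Ncapg, a condensin subunit, had an amplitude of 0.42 ± 0.11 and did not pass (adjusted p 0.105). Levels of the 38 genes ran from 0.855 RPKM (Cdc25c) to 13.0 RPKM (Top2a), with a median of 2.99 RPKM.

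Promoter sequences are shown because many of these genes moved together and because late cell cycle genes are known in human and mouse cells for a pair of elements near the start site. MuvB complexes bind the cell cycle genes homology region, TTTGAA in its core, and NF-Y binds the CCAAT box. RefSeq windows of 300 bases on GRCm38.p6, from 250 bases before to 50 after the start, were matched for 33 of 38 genes. The windows of 24 of 33 genes (72.7%) held TTTGAA on either strand, against 14.6% of the windows of genes tested, counted by gene. CCAAT on either strand was in 24 of 33 (72.7%) against 42.3%, both were in 20 of 33 (60.6%) against 5.99%, and the E-box CACGTG, the letters to which the clock proteins CLOCK and BMAL1 bind, was in 2 of 33 (6.06%) against 11.2%. Among genes with a shared ZT rhythm 16 of 19 held TTTGAA and 14 of 19 held both. Among the other members 8 of 14 held TTTGAA and 6 of 14 held both. In the list of DNA replication genes 4 of 29 held TTTGAA. A match is a description of letters, not a site in use. The 150 bases before the start are printed for 5 genes with a shared rhythm, among them a cyclin, its kinase, a kinesin and both anaphase genes, and for the checkpoint gene Mad2l1, whose level followed no shared rhythm. Capitals mark TTTGAA, or TTCAAA where it lies on the other strand, and CCAAT, or ATTGG where it lies on the other strand. No such letters lie in the Mad2l1 stretch, and the Ccnb1 stretch holds CCAAT alone. Mad2l1 does not stand for the other members that did not pass, and the window of Nusap1, which passed, held neither element.
Ccnb1 (chr13:100786487-100786636, minus strand): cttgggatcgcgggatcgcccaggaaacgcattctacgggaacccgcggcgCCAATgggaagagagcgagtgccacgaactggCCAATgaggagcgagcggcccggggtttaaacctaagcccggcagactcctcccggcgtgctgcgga
Cdk1 (chr10:69352913-69353062, minus strand): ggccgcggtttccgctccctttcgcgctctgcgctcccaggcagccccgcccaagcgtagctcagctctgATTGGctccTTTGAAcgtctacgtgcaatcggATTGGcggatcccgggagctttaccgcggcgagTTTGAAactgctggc
Cdc20 (chr4:118437344-118437493, minus strand): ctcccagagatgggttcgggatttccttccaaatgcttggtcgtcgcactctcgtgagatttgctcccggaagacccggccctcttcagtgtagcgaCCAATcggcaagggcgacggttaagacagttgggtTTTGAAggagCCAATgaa
Kif11 (chr19:37376232-37376381, plus strand): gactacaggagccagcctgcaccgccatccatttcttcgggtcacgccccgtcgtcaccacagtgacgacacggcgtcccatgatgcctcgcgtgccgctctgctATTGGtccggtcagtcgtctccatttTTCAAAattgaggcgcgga
Ube2c (chr2:164769779-164769928, plus strand): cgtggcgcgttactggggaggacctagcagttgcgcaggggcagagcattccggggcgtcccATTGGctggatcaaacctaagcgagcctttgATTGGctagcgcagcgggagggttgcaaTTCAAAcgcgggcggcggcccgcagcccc
Mad2l1 (chr6:66535071-66535220, plus strand): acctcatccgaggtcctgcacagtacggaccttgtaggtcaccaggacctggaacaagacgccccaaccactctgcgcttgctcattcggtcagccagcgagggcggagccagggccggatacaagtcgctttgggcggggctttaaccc

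Differences in mean level over the day passed for some of these genes, in numbers that moved when single pools were left out. The label code ran from L1 to L3 in MD, L3 to L6 in ED and L6 to L8 in EN. Mean differences between groups can thus hardly be told apart from differences between codes, and no code term was fitted for them. Between ED and MD, 5 of 38 genes passed (23% of all genes), and all 5 were higher in ED (11.8% of all genes were): Cdk1, Ttk, Cdc20, Ccna2 and Ncapg. Cdk1 averaged 9.53 ± 5.34 CPM in ED and 5.48 ± 1.46 CPM in MD (SD, n = 8 each), a log2 difference of 0.62 ± 0.15 (standard error; edgeR's quasi-likelihood test, adjusted p = 0.00461). Ttk averaged 13.7 ± 1.96 CPM in ED and 10.5 ± 1.15 CPM in MD, a log2 difference of 0.38 ± 0.09 (adjusted p = 0.00440). Between ED and EN none of the 38 passed and none of all genes did (edgeR's quasi-likelihood test; 1 of 38 and 961 of all genes unadjusted). Between MD and EN, 6 of 38 passed (30.2% of all genes). Cdc25b was higher in MD (14.4% of all genes were), and Cdk1, Cdc20, Ccnb2, Cenpa and Ttk were lower in MD (15.9% of all genes were). Without regard to direction, these shares are 13.2% and 15.8% of the 38. For Cdk1 the difference, MD minus EN, was -0.64 ± 0.15 log2 units, with 5.48 ± 1.46 CPM in MD and 8.77 ± 1.89 CPM in EN (adjusted p = 0.00281). Markers of other tissue parts moved with the same groups. All 5 adipocyte genes were higher in ED than in MD (median log2 difference 0.97) and lower in MD than in EN (-1.07), and their sums lay between 1502 and 2280 CPM in ED, 812 and 1358 CPM in MD and 1697 and 2893 CPM in EN. Of 7 leukocyte genes 5 were higher in ED than in MD and 5 were lower in MD than in EN, and of 6 skeletal muscle genes 5 were lower in ED than in MD and 3 were higher in MD than in EN. Of 6 dermal fibroblast genes 4 were higher in ED than in MD and 5 were lower in MD than in EN, and of 7 basal keratinocyte genes 3 were lower in ED than in MD and 4 were higher in MD than in EN. Summed over its 6 genes the dermal fibroblast list lay between 41572 and 69828 CPM in ED, 27058 and 42437 CPM in MD and 40452 and 77024 CPM in EN, and the basal keratinocyte list between 5952 and 7509 CPM in ED, 6254 and 7864 CPM in MD and 5801 and 7493 CPM in EN. Their part in the mean levels of mitosis genes was not tested. With sampling time as a block in place of the curves, 9 genes passed between ED and MD, a count given without a share of all genes. Without ED ZT24 and EN ZT0, 3 passed there, Cdk1, Ttk and Ncapg (19.5% of all genes passed). Single pools moved the count between ED and MD to 15 of 38 (39.5%, where 22.4% of all genes passed) without ED ZT0 and to 9 (23.7%, where 21.6% did) without MD ZT8. It was 3 without ED ZT16, ED ZT20, ED ZT24, MD ZT4 or MD ZT16 (12.5% to 22.6% of all genes) and 2 (5.26%, where 15.1% of all genes passed) without ED ZT12. Between MD and EN 3 passed without MD ZT16 or without EN ZT12 (20.1% and 23.6% of all genes).

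Fitted curves of genes from the earlier part of the cell cycle were highest at the other end of the day. Of 36 tested genes of DNA replication and S phase none passed for a shared rhythm over ZT by edgeR's quasi-likelihood test, and 9 had an unadjusted p below 0.05 (14.7% of all genes). Fitted peaks of 34 of these 36 lay between ZT7 and ZT15, a window chosen after the values were seen that held 33.8% of the peaks of all genes tested, and 0 of 36 lay between ZT20 and ZT2, which held 35 of 38 peaks of the mitosis genes. The median amplitude was 0.18 on the log2 scale. Ccne2, cyclin E2 of S phase entry, had 0.36 ± 0.09 with a peak at ZT 11.8 h (adjusted p 0.117), Mcm2, of the replicative helicase, 0.31 ± 0.11 at ZT 10.2 h, and Pcna, the sliding clamp, 0.16 ± 0.06 at ZT 11.3 h. Over all 24 pools the summed level of the 36 genes was 388 to 686 CPM, highest in ED ZT12. Pools of clock ZT0 differed. ED ZT0 and ZT24 had 429 and 679 CPM, MD ZT0 and ZT24 had 413 and 540 CPM, and EN ZT0 and ZT24 had 496 and 508 CPM. Fits of these genes without ED ZT24 and EN ZT0 are not given.

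**Figure D5:**
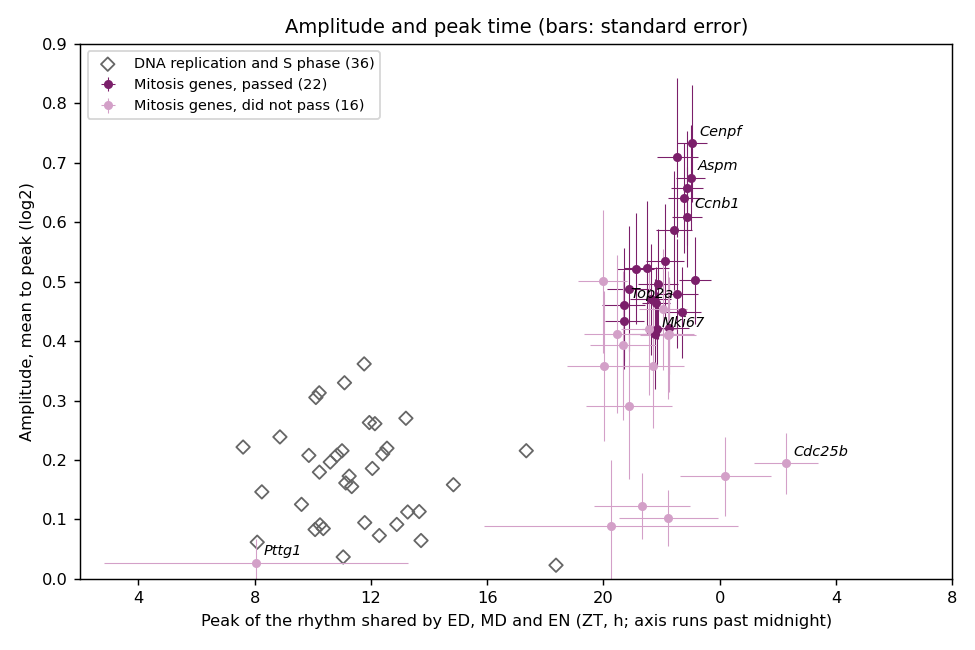
Amplitude (log2, mean to peak) against peak time (ZT, h) of the rhythm shared by ED, MD and EN, for 22 mitosis genes that passed, 16 that did not (bars are standard errors) and 36 genes of DNA replication and S phase (open diamonds). Of the mitosis genes 35 of 38 lie between ZT20 and ZT2, and of the replication genes 34 of 36 lie between ZT7 and ZT15.

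Among 22 genes known to govern the transcription of mitotic genes, 2 passed. Foxm1, the forkhead activator of G2 and M genes, ran from 4.57 to 13.4 CPM in ED, from 4.17 to 8.25 CPM in MD and from 3.82 to 8.52 CPM in EN. Its amplitude was 0.41 ± 0.08 and its peak ZT 20.2 h (edgeR's quasi-likelihood test, adjusted p = 0.0408). E2f2, an E2F activator, had 0.33 ± 0.06 at ZT 21.6 h (adjusted p = 0.0234). Mybl2, for B-MYB, lay between 2.0014 and 6.70 CPM in ED, 1.97 and 4.82 CPM in MD and 1.95 and 3.82 CPM in EN, and its amplitude of 0.24 ± 0.13 did not pass (adjusted p 0.531).

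Of 11 tested brakes on the cell cycle, none passed for a shared rhythm over ZT by edgeR's quasi-likelihood test, and 4 did unadjusted (14.7% of all genes). Wee1, the kinase that holds CDK1 inactive and is driven by the clock in mouse liver, lay between 13.1 and 38.2 CPM in ED, 14.4 and 47.2 CPM in MD and 9.89 and 54.9 CPM in EN. Its shared amplitude was 0.56 ± 0.16 with a peak at ZT 12.5 h (adjusted p 0.109). In ED it was at 13.6 and 38.2 CPM at ZT8 and ZT12, where the summed mitosis genes were lowest. At ZT16 and ZT20 in ED it was at 34.5 and 29.5 CPM. In MD it was highest at ZT4 (47.2 CPM), the pool with the lowest mitosis sum there (371 CPM). In EN it was highest at ZT12 (54.9 CPM), again the pool with the lowest sum (373 CPM). The relation of Wee1 to the mitosis genes was not tested. The test within EN passed for Wee1 (adjusted p = 0.00167). Cdkn1a, for the CDK inhibitor p21, lay between 67.7 and 92.6 CPM in ED, 57.2 and 135 CPM in MD and 55.3 and 95.7 CPM in EN. It passed for a shared rhythm over hours since food (adjusted p = 0.0109), for which 0 of the 38 mitosis genes passed.

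The genes outside the list whose course was most like the mean of the 38, by Pearson correlation of log2 CPM over 24 pools, were Casc5 (0.95), Spag5 (0.94), Cep55 (0.91), Kif22 (0.90) and Fam64a (0.89), followed by Ckap2, Dlgap5, Depdc1a, Kif14 and Ccnf, the last at 0.86. All 10 belong to the separate list of mitotic genes. Without ED ZT24 and EN ZT0 the 10 correlations ran from 0.76 to 0.91. The pools share library and depth with both sides of each correlation.

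Reads assigned to introns were counted apart and tested in the same way. All 38 were tested there among 14611 genes, with 225 to 10087 intron reads each. By edgeR's quasi-likelihood test a shared ZT rhythm passed in 4 of 38 (0.37% of all intron rows): Aspm, Anln, Cenpf and Ect2. Unadjusted, 29 of 38 passed, where 12.1% of all intron rows did. Amplitudes were 0.61 ± 0.10 for Aspm, 0.32 ± 0.06 for Anln, 0.58 ± 0.12 for Cenpf and 0.35 ± 0.06 for Ect2, and 29 of the 38 fitted peaks lay between ZT20 and ZT2. Antisense reads, which the table counts apart, outnumbered exon reads for Kif20a (4441 against 3566) and Kif4 (4829 against 4373) over the 24 pools. They nearly equalled them for Ncapg (2210 against 2217).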

How the data were processed

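Libraries were made with a stranded total RNA kit from RNA with an integrity number above 6.5, per the labels. The deposited whole-number read counts, per gene model, keep exon, intron and antisense reads apart, per the file headers, so overlapping genes on opposite strands are counted separately. Per the submitters' processing notes, TopHat2, SAMtools and HOMER were used (no versions listed) and the build was mm10. Neither the counting program nor how it treated multiply matching reads is named there, so genes with processed copies, such as Pttg1 and Ube2c, are uncertain. A second table, deposited by the authors, holds RPKM values made with cqn, per its name, and was used for levels per length and for an alternative.

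Genes were kept by filterByExpr by feeding group (minimum count 10, minimum total 15), TMM gave the scaling, and log2 CPM had a prior count of 2. Tests used edgeR 4.0.16 quasi-likelihood fits in R 4.3.3 with cosine and sine terms of 24 h: 1 curve shared by the groups (19 residual degrees of freedom), ZT and food time together (17), or a curve per group (15). Amplitudes and peaks are least-squares values on log2 CPM with standard errors. The fits were tested on simulated data. Alternatives were DESeq2 1.42.0, RLE size factors, limma 3.58.1 on log2(RPKM + 0.1) and log2(RPKM + 1), no filter, a term for the L code, pools left out, clock time as a factor and sampling time as a block. No mitosis gene was left out. Values in every pool are printed for 9 genes that head the roles and for those with the 3 smallest and the 3 largest p for a shared ZT rhythm. The members and gene lists were chosen with earlier results of these data known. Counts limit precision most for Cdc25c, with 8 reads in its lowest pool.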

Additional observations from a re-analysis of the deposited data

Results flagged for a closer look

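In groups of 8 pools, the highest or lowest pool was set against its neighbour for the summed mitosis genes, the summed hair follicle markers and 15 named genes. A total of 6 of 51 groups had a pool far from the others. Independent values with no daily course pass this cut-off about 1 time in 20. That rate does not apply here, because the pools of a group differ in clock time and the values share the same pools. Hair follicle markers stood apart in ED ZT24 (883 CPM) and in EN ZT0 (2489 CPM). Ccnb1 stood apart in ED ZT24 (26.0 CPM), as did Cdk1 (21.2 CPM) and Plk1 (9.21 CPM). Mki67 stood apart in EN ZT0 (135 CPM). The flags for hair follicle markers define the pair of pools high in them. The pools flagged for Ccnb1, Cdk1, Plk1 and Mki67 belonged to that pair, and what part hair follicle cells had in the mitosis genes was not tested. The curve over hours since food differed among the feeding groups in 25 of 38 mitosis genes, as given above (edgeR's quasi-likelihood test).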

How the results depend on the processing

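Of counts that moved by over 1.5 times, those for a shared ZT rhythm went to 4 with clock time as a factor and to 9 with the L code as a term, and beside food time to 7 with the L code and to 14 without the second day. Without ED ZT24 and EN ZT0 the counts were 10 in ED, 4 in MD, 2 in EN and 3 for mean levels between ED and MD. Without the second day they were 6 in ED, 2 in EN, 11 for a food time rhythm that differed among the groups and 2 for mean levels between ED and MD. In MD, where 1 gene passed, the count was 4 with no filter, 0 with either RPKM scale and 7 with DESeq2. DESeq2 also called 3 genes for a ZT rhythm that differed among the groups and 1 between ED and MD. With sampling time as a replicate block, 9 genes passed for mean levels between ED and MD and 5 between MD and EN, against 5 and 6. For alternatives given without a share of all genes, a change in the list cannot be told apart from a general change in calls. Leaving out each pool in turn gave 13 to 24 genes for a shared ZT rhythm, 11 to 25 beside food time, 6 to 28 in ED, 0 to 4 in MD, 0 to 7 in EN, 0 to 4 for a ZT rhythm and 16 to 30 for a food time rhythm that differed among the groups, 2 to 15 for mean levels between ED and MD, 3 to 7 between MD and EN and 0 to 5 for a rhythm differing between ED and MD. The lowest count came without ED ZT12 for a shared ZT rhythm (13), beside food time (11), for food time rhythms that differed (16) and for mean levels between ED and MD (2), without ED ZT8 or ED ZT12 in ED (6), and without EN ZT12 in EN (0). The highest counts for differences between ED and MD came without ED ZT0, with 15 for mean levels and 5 for the rhythm. The cause was not tested. The shared food time rhythm passed in 0 of 38 genes under each alternative run.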
